A study of Ogataea polymorpha NCYC 495 leu1.1 with 8 samples.

Results

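The hexose transporter family of the methylotrophic yeast Hansenula polymorpha (Pichia angusta in the labels) is described here by the 5 genes Hp29g270, Hp42g249, Hp47g129, Hp32g514 and Hp44g82, out of an array on which 1145 genes were called higher on methanol, 1283 lower and 3571 neither. They are genes that the annotation given with the study names as hexose transporters. Hp47g129 is a member by its label as hexose transporter-like GCR1, and the others by their closest sequence match. Genes matched to glucose transporters were listed apart. That annotation was read from a table sorted by the ratio and shortened to its high end, so a hexose transporter whose transcript fell on methanol could not have become a member, and the common upward direction of the 5 ratios is not a result.

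Hexose transporters are membrane proteins of the major facilitator superfamily that carry glucose, fructose and related sugars into the cell. Some relatives have lost or lessened transport and act in sugar sensing instead, as with Snf3 and Rgt2 of Saccharomyces cerevisiae. In H. polymorpha, in which glucose represses the genes of methanol metabolism, the transporter homologue GCR1 is known to be needed for that repression.

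Cells of strain NCYC 495 leu1.1 were compared in a single pair of conditions. The methanol samples were taken 2 h after transfer to fresh mineral medium with 0.5% methanol as the only carbon source, started at an OD660 of 0.2, and the glucose samples were the late exponential glucose cultures themselves, at an OD660 of 2.3. Both were grown at 37 °C, from 4 independent cultures. From every culture the methanol and the glucose RNA were put together on 2 arrays, labelled one way round with Cy5 and Cy3 on the first and the other way round on the second. The 8 arrays lay on 1 slide. Carbon source, dilution and fresh medium changed together and cannot be told apart, and 1 time point was sampled. Equal amounts of total RNA were labelled, so the ratios are relative to total RNA and say nothing of the RNA per cell.

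Each gene was measured by 1 probe in 2 spots per array. In the single channels 90.6% to 98.3% of the gene spots passed the test of Feature Extraction for being well above background. The 2 arrays of a culture correlated over genes with r between 0.982 and 0.985. Culture 1 stood apart from the others, with r between 0.894 and 0.934, against 0.968 to 0.978 among cultures 2 to 4. The labels were checked by 4 genes that methanol induces, encoding alcohol oxidase, formate dehydrogenase, catalase and dihydroxyacetone synthase, which were 10.8-fold to 227-fold higher on methanol and all called upregulated. A gene was called when its mean ratio of methanol over glucose passed 2-fold in either direction, its adjusted p (limma, Benjamini-Hochberg over all genes) was under 0.05, and its A-value, its log2 signal averaged over dyes and arrays, was at least 6.

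Of the 5 hexose transporter genes, 3 were called upregulated, at 63.5-fold (Hp29g270), 23.2-fold (Hp42g249) and 18.9-fold (Hp47g129), and 0 were called downregulated. The other members, Hp32g514 and Hp44g82, were 1.58-fold and 1.60-fold higher on methanol and were not called. Of all genes, 19.1% were called upregulated and 21.4% downregulated. That 0 members were called downregulated was fixed by how the members were chosen. The 5 genes therefore fell into a strongly induced and a weakly changed set, with no member between a 2-fold and an 18-fold change. This gap depends on which genes were taken as members. Of the sugar transporters listed apart, some lay inside it, such as Hp19g264 (5.39-fold) and Hp27g552 (13.7-fold), and others above, such as Hp27g608 (189-fold).

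Hp29g270 had the largest mean ratio of the family. Its closest match is hxtA of Aspergillus parasiticus, a hexose transporter gene that lies in a sugar utilisation cluster beside the aflatoxin genes of that mould. Its signal was 67891, 48932, 56743 and 85393 units in methanol cultures 1 to 4, against 1187, 774, 703 and 1536 units in the same glucose cultures. The lowest methanol culture lay far above the highest glucose culture, and culture 4 was the highest under both conditions. Relative to the median of all genes in the channel, culture 4 was still the highest on glucose. On methanol it was culture 3, with 5.10 against 4.91 in culture 4 on the log2 scale. The log2 ratio was 5.99 ± 0.24 (SD, n = 4 cultures, adjusted p = 2.41e-06, limma), with 5.84, 5.98, 6.34 and 5.80 in the 4 cultures. By this ratio the gene had rank 25 among all genes, and 0.40% of them had a higher one.

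Hp42g249 is closest to Frt1 of Kluyveromyces lactis and similar to Fsy1 of Saccharomyces pastorianus, which both import fructose together with protons. Its signal was 141789, 156192, 152467 and 248892 units in methanol cultures 1 to 4, against 8155, 5424, 7909.6 and 8225 units in glucose cultures 1 to 4. The conditions did not overlap, and culture 4 was the high one on methanol while culture 2 was the low one on glucose. Relative to the median of all genes in the channel, culture 3 was the highest on methanol, with 6.53 against 6.45 in culture 4 (log2). The log2 ratio was 4.54 ± 0.40 (SD, n = 4, adjusted p = 7.95e-06, limma), with 4.12, 4.85, 4.27 and 4.92 in the 4 cultures.

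Hp47g129 is annotated as GCR1, the glucose repression gene of H. polymorpha, and outside this species is closest to the monosaccharide transporter gene mstA of Aspergillus nidulans. Its signal was 438195, 318494, 405598 and 440858 units in methanol cultures 1 to 4, against 23104, 19350.1, 27984 and 15700.3 units in glucose cultures 1 to 4. The conditions did not overlap. Culture 4, with the highest methanol and the lowest glucose signal, had the largest ratio. Relative to the median of all genes in the channel, culture 3 was the highest on methanol, with 7.94 against 7.28 in culture 4 (log2). The methanol readings in Cy5 stood at 96.9% to 98.9% of the saturation value, so neither order of the cultures on methanol is settled. The log2 ratio was 4.24 ± 0.41 (SD, n = 4, adjusted p = 9.91e-06, limma), with 4.25, 4.04, 3.86 and 4.81 in the 4 cultures.

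The methanol signal of GCR1 reached the upper end of the scanner range. Of its 16 spot readings on methanol 5 were saturated, all of them in Cy5 (5 of 8), and 0 of its 16 readings on glucose were. It was 1 of 11 genes with any saturated reading. A saturated reading gives a lower limit of the methanol signal, so as far as saturation goes the 18.9-fold ratio is a lower limit. Without the saturated spots the log2 ratio of Hp47g129 was 4.10 (17.2-fold). There culture 3 was represented only by its array with glucose in Cy5, because both spots of its other array were saturated. In culture 3 the log2 ratio was 3.24 with glucose in Cy5 and 4.47 with methanol in Cy5. The lower value without saturated spots therefore does not show that saturation raised the ratio.

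Hp32g514 is also closest to hxtA of A. parasiticus, but was little changed. Its signal was 525, 187, 149 and 414 units in methanol cultures 1 to 4, against 260.3, 132, 122 and 230.1 units in glucose cultures 1 to 4. Methanol exceeded glucose within every culture, yet the conditions overlapped, since cultures 1 and 4 were high and cultures 2 and 3 low under both. The same cultures had the higher median signal over all genes, with 11.55 and 11.47 in methanol cultures 1 and 4 on the log2 scale. In methanol cultures 2 and 3 the median was 10.95 and 10.69. Relative to the median of all genes in the channel, the signal was -2.51, -3.41, -3.47 and -2.78 in methanol cultures 1 to 4. In glucose cultures 1 to 4 it was -3.56, -3.95, -3.79 and -3.67, so that by this measure the conditions did not overlap. The part of the median signal in the spread was not tested. The log2 ratio was 0.66 ± 0.33 (SD, n = 4, adjusted p = 0.00745, limma), with 1.01, 0.50, 0.28 and 0.85 in the 4 cultures. Its 95% interval from the fit ran between 0.30 and 1.02, which includes a 2-fold change.

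Hp44g82, the remaining member with hxtA as its closest match, gave the weakest data. Its signal was 108, 24.2, 18.0 and 26.9 units in methanol cultures 1 to 4, against 47.4, 19.7, 11.4 and 18.0 units in glucose cultures 1 to 4. The conditions overlapped, and culture 1 was the highest under both. The log2 ratio was 0.68 ± 0.37 (SD, n = 4, adjusted p = 0.00887, limma), with 1.18, 0.30, 0.66 and 0.58 in the 4 cultures and a 95% interval between 0.29 and 1.07. With an A-value of 4.73 the gene lay under the limit of 6, as did 521 genes in all. Both of its spots were well above background on 5 of 8 arrays in the methanol channel and on 3 of 8 in the glucose channel. Its 2 spots on an array differed by up to 2.57-fold on methanol and 2.74-fold on glucose. For the other 4 members all spots were well above background, and the largest difference between spots over Hp29g270, Hp42g249, Hp47g129 and Hp32g514 was 1.20-fold on methanol (Hp29g270) and 1.38-fold on glucose (Hp47g129).

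**Figure D1:**
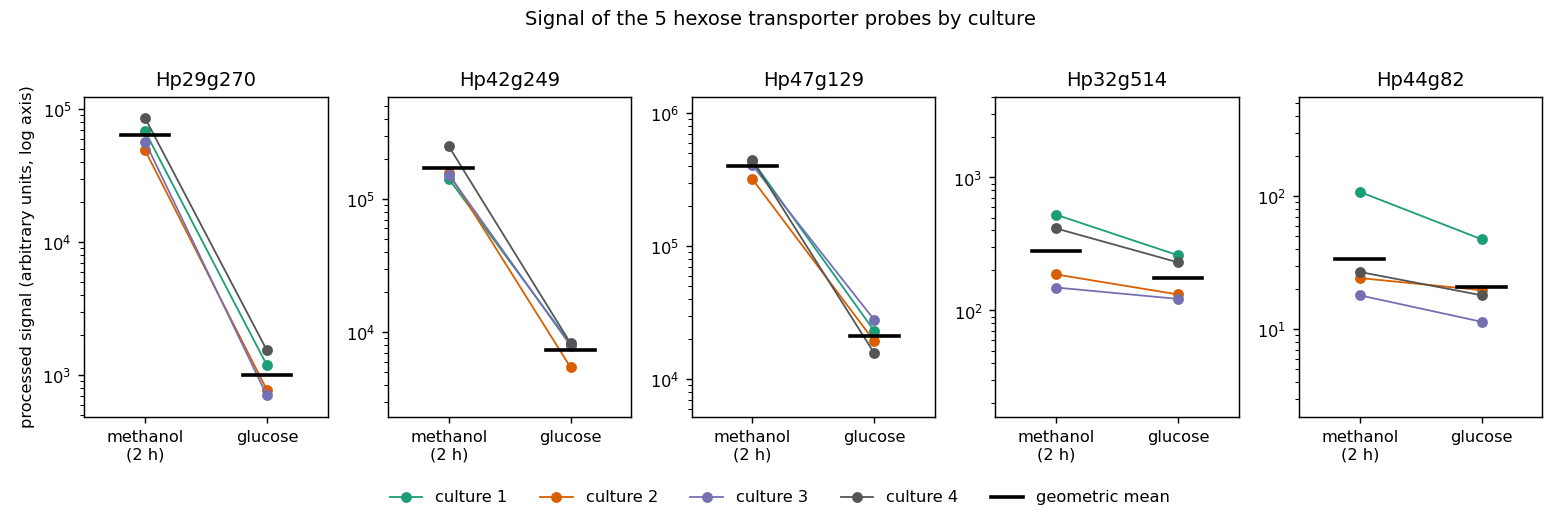
Processed signal (arbitrary units, log axis with the same span in every panel) of the 5 hexose transporter probes on methanol and on glucose, with 1 line per culture and the geometric mean of 4 cultures as a black bar. The lines of Hp29g270, Hp42g249 and Hp47g129 fall steeply to glucose with no overlap between the conditions, whereas those of Hp32g514 and Hp44g82 are shallow and overlap. Signals are to be compared within a panel only, and are not taken relative to the median of all genes.

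The methanol and glucose signals of the 4 cultures, not taken relative to the median of all genes, did not overlap for 3 of the 5 members. The same held for 20.0% of all genes in the upward direction. For 0 members all methanol signals lay below all glucose signals, which was fixed by how the members were chosen. Of all genes 21.8% were of that kind. The upward direction in the other counts given here was fixed likewise, so nothing is read from setting them beside the shares of all genes. On single arrays the ratio was above 0 on 8 of 8 arrays for all 5 members, as for 38.0% of all genes. It passed 2-fold on 8 of 8 arrays for Hp29g270, Hp42g249 and Hp47g129, but on 1 of 8 for Hp32g514 and 2 of 8 for Hp44g82. At an adjusted p under 0.05 with no limit on the fold (limma), all 5 members were higher on methanol, beside 38.7% of all genes. For Hp32g514 and Hp44g82 this held only with the conditions paired by culture, and adjusted p was 0.146 and 0.132 (limma) when the pairing was left out. Hp44g82 also missed the limit with the pairing kept under other background treatments. Its adjusted p was 0.0651 after normexp with loess and 0.0783 after loess without background subtraction (limma).

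The ratios were compared between members within each culture, in 10 pairs. With 4 cultures the exact two-sided sign-flip test cannot give a p below 0.13, so that no pair could pass 0.05, and after Benjamini-Hochberg adjustment over the pairs the lowest p was 0.16. Among the 3 genes with hxtA as their match, Hp29g270 exceeded Hp32g514 by 5.33 ± 0.56 and Hp44g82 by 5.31 ± 0.49 in log2 ratio (SD, n = 4, exact p = 0.13 each, in 4 of 4 cultures). The shared match thus covered the most and the least induced members. Hp29g270 also exceeded Hp42g249 in 4 of 4 cultures, by 1.45 ± 0.54, and Hp47g129 in 4 of 4, by 1.75 ± 0.63 (exact p = 0.13 each).

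The ratios of Hp42g249 and Hp47g129 differed by 0.30 ± 0.40, between -0.13 and 0.81 in the single cultures, with Hp42g249 the higher one in 3 of 4 (exact p = 0.375, adjusted 0.417). Hp32g514 and Hp44g82 differed by -0.02 ± 0.30, between -0.38 and 0.26 (exact p = 1). Neither difference exceeded the spread between cultures, and neither order among these neighbours was settled.

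The size of the induction depended on which dye carried which sample. Hp29g270 was 97.5-fold higher on methanol on the 4 arrays with methanol in Cy5 and 41.3-fold on the 4 with glucose in Cy5. For Hp42g249 these ratios were 35.9-fold and 15.0-fold, and for Hp47g129 30.4-fold and 11.7-fold. The 30.4-fold of Hp47g129 is a lower limit as far as saturation goes, since its methanol readings in Cy5 were partly saturated. In log2 terms the ratio with methanol in Cy5 exceeded that with glucose in Cy5 by 1.24 ± 0.18, 1.26 ± 0.18 and 1.37 ± 0.25 for Hp29g270, Hp42g249 and Hp47g129 (SD, n = 4, in 4 of 4 cultures, adjusted p = 0.00164, 0.00157 and 0.00227, limma). Hp32g514 showed a difference of 0.14 ± 0.17 (adjusted p = 0.176) and Hp44g82 one of -0.13 ± 0.27 (adjusted p = 0.380). Of all genes, 15.2% were higher and 21.1% lower with methanol in Cy5 by the same test, so that a labelling difference as such was common, while 0.53%, 0.50% and 0.28% of all genes had a larger positive one than Hp29g270, Hp42g249 and Hp47g129. Each of the 3 was called upregulated on the arrays of either labelling alone.

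**Figure D2:**
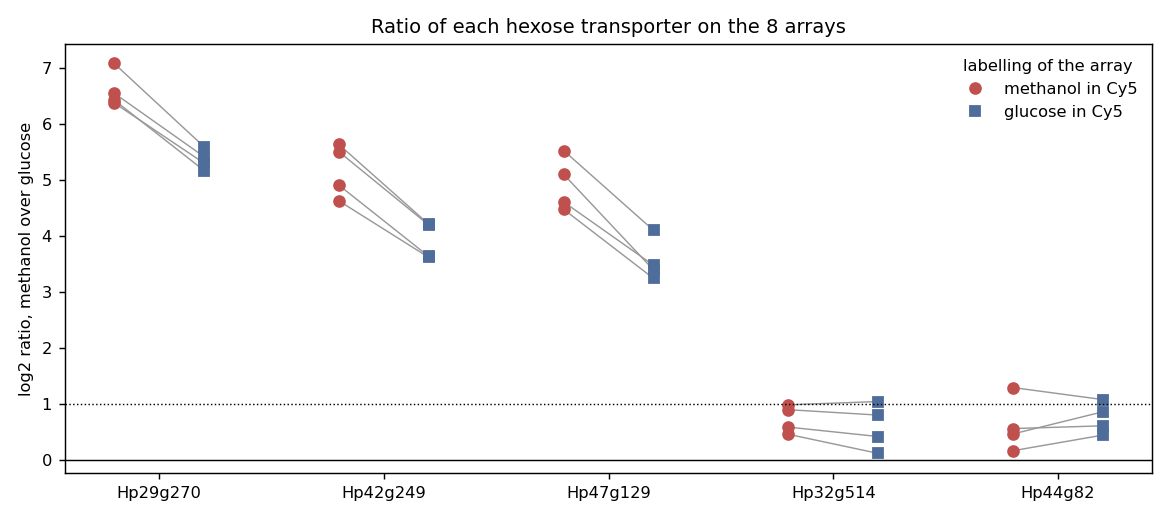
Log2 ratio of methanol over glucose of each hexose transporter on the 8 arrays, with circles for arrays with methanol in Cy5, squares for arrays with glucose in Cy5, and a grey line joining the 2 arrays of a culture. The dotted line marks a 2-fold change. All 12 lines of Hp29g270, Hp42g249 and Hp47g129 slope down to glucose in Cy5, and the ratios of Hp32g514 and Hp44g82 show no common slope.

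The signal of each condition was then compared between the dyes. For Hp29g270 the glucose RNA gave 1676, 1253, 1159 and 2401 units when labelled with Cy5 in cultures 1 to 4, against 842, 479, 426 and 982 units for the same RNA labelled with Cy3. For Hp42g249 the glucose RNA gave 11449, 9923, 14948 and 14599 units in Cy5, against 5809, 2965, 4185 and 4634 units in Cy3. For Hp47g129 it gave 43263, 33496, 53492 and 28546 units in Cy5, against 12339, 11178, 14639.7 and 8635 units in Cy3. The Cy5 reading was the higher one in every culture, and for each of the 3 genes the lowest Cy5 reading of the glucose RNA lay above the highest Cy3 reading.

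Relative to the median of all genes, the glucose signal in Cy5 exceeded that in Cy3 by 1.33 ± 0.19, 1.60 ± 0.36 and 1.80 ± 0.27 on the log2 scale for Hp29g270, Hp42g249 and Hp47g129 (SD, n = 4), which is 2.51-fold, 3.04-fold and 3.47-fold. Adjusted p was 0.00162, 0.00344 and 0.00162 (limma), and 2.87% of all genes had a glucose signal higher in Cy5 by this test. Relative to the same median, the methanol signal of these genes was lower in Cy5 than in Cy3 in 4 of 4 cultures for each gene. The mean differences were -0.05 ± 0.04, -0.31 ± 0.26 and -0.38 ± 0.25 (Cy5 minus Cy3, SD, n = 4). They did not pass the test (adjusted p = 0.596, 0.160 and 0.107, limma), which 2.67% of all genes passed in either direction. As measured, the methanol signal was higher in Cy5 for Hp29g270 in cultures 1 and 3 and for Hp42g249 in culture 1. The value of Hp47g129 is limited by its methanol readings in Cy5, which stood at 96.9% to 98.9% of the saturation value with 5 of 8 marked as saturated, so that a higher methanol signal in Cy5 could not have been seen. For this gene the labelling difference could therefore not be placed in one condition. For Hp32g514 the glucose signal differed between Cy5 and Cy3 by 0.06 ± 0.13 (adjusted p = 0.566) and for Hp44g82 by -0.25 ± 0.79 (adjusted p = 0.614, limma).

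A higher glucose signal in Cy5 was also measured for other strongly induced genes. Of the 195 genes called upregulated more than 10-fold, which include the 3 members, 88 (45.1%) had a glucose signal higher in Cy5 at an adjusted p under 0.05 (limma). The share over all genes was 2.87%. At the same limit 1 of the 195 had a methanol signal that differed between the dyes, beside 2.67% of all genes. The median glucose difference of the 195 genes was 0.45. Of the 18 other sugar transporters of the same annotation, 9 had a higher glucose signal in Cy5 at the same limit, beside the same 2.87%. The scan from which the glucose readings were taken also differed between the dyes for Hp42g249 and Hp47g129, but not for Hp29g270. All 16 methanol readings of each induced member, and 6 of 8 glucose readings in Cy5 of Hp42g249 and 8 of 8 of Hp47g129, were taken from the low-gain scan and scaled up, against 0 of 8 in Cy3 for either gene. For Hp29g270 0 of 8 glucose readings in Cy5 and 0 of 8 in Cy3 came from the low-gain scan. The part of the scan gain in the differences between the dyes was not tested for any of the 3 genes. Without the saturated spots the labelling difference of Hp47g129 was 1.47 (adjusted p = 0.00664, limma), from the 3 cultures in which a spot remained.

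**Figure D3:**
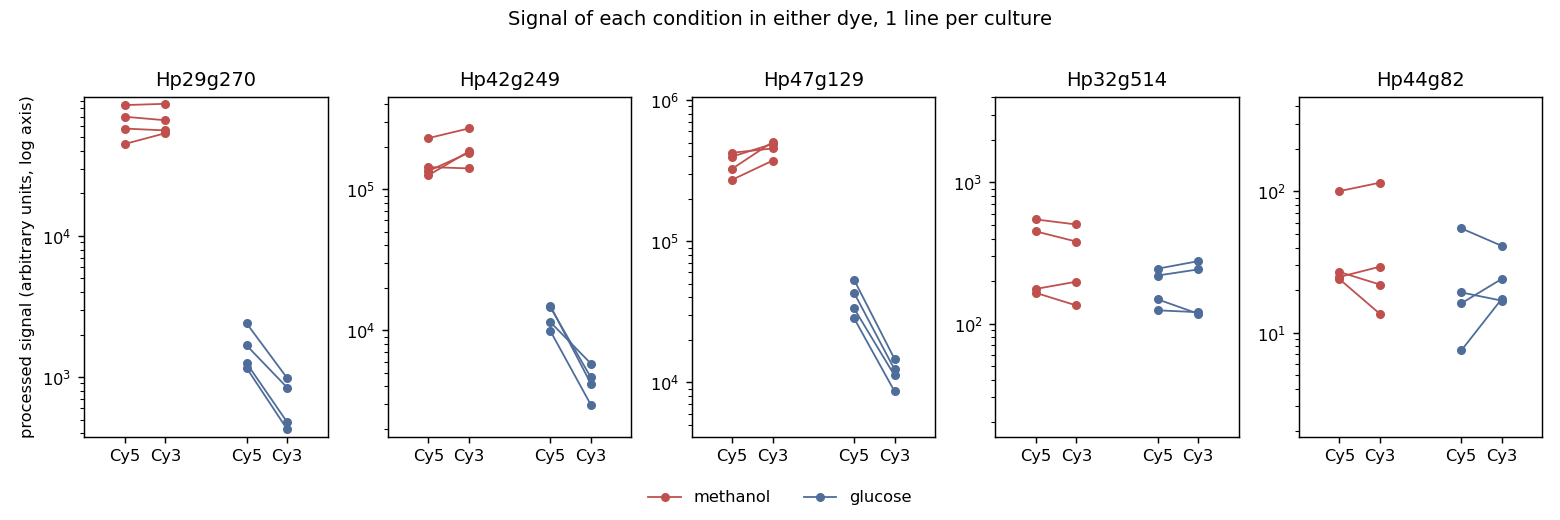
Processed signal (arbitrary units, log axis with the same span in every panel) of the 5 hexose transporter probes for the methanol RNA (red) and the glucose RNA (blue) in Cy5 and in Cy3, with 1 line per culture. The glucose lines of Hp29g270, Hp42g249 and Hp47g129 drop to Cy3 in every culture. Relative to the median of all genes, which the plotted signals are not, these glucose signals drop by 2.51-fold, 3.04-fold and 3.47-fold on average. By the same measure their methanol signals differ by -0.05, -0.31 and -0.38 on the log2 scale (Cy5 minus Cy3). The Cy5 readings of Hp47g129 on methanol are at or near saturation.

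For each member the gene with the most similar ratios was sought among the genes with an A-value of at least 6, by the Euclidean distance over the 8 per-array log2 ratios. For Hp29g270 it was Hp7g17, matched to the S. cerevisiae membrane protein YNL279w (distance 0.73, log2 ratio 6.04 ± 0.21, SD, n = 4). For Hp42g249 it was Hp32g452, matched to a D-arabinitol 2-dehydrogenase of Candida tropicalis (1.00, log2 ratio 4.50 ± 0.32). For Hp47g129 it was the family member Hp42g249 (1.40), whereas Hp47g129 was only the third closest to Hp42g249. For Hp32g514 it was Hp51r3558, matched to a conserved protein of unknown role in Pichia guilliermondii (0.55, log2 ratio 0.76 ± 0.20). For Hp44g82 it was Hp46g11, TPS1, which encodes trehalose-phosphate synthase (0.44, log2 ratio 0.71 ± 0.34).

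The rest of the sugar transporters in the same annotation comprise 18 genes, read from the same sorted table, so that their direction was fixed by the reading and the size of their ratios was affected by it. Of these, 17 were called upregulated, beside 19.1% of all genes, and their median log2 ratio was 2.20 (4.60-fold). The median was 4.24 for the 5 hexose transporters and 0.04 for all genes, and nothing is read from these medians because of how the lists were taken. Among the 10 matched to glucose or unspecified sugar transporters, 9 were called. Hp27g608, annotated as a sugar transporter-like protein of H. polymorpha, was 189-fold higher on methanol (log2 ratio 7.56 ± 0.21, SD, n = 4, adjusted p = 1.98e-06, limma), above every hexose transporter. Hp31g629, matched to a yeast sugar transport protein, was 24.6-fold higher (4.62 ± 0.44). Hp19g264, Hp26g375 and Hp24g467, whose matches are glucose transport proteins, were higher by 2.43, 1.73 and 1.63 in log2 ratio. Hp5g188 was 2.00-fold higher and was not called, its A-value of 3.45 being under the limit, and its neighbour in the numbering Hp5g187, at 2.08-fold, lost its call without culture 1 (log2 ratio 0.91).

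All 8 genes matched to disaccharide, inositol or quinate transporters were called upregulated, beside 19.1% of all genes. They were read from the same sorted table, so nothing is read from this count. The maltose permease gene Hp13g48 was 165-fold higher on methanol (log2 ratio 7.37 ± 0.12, SD, n = 4, adjusted p = 1.98e-06, limma). Of the 3 adjacent-numbered genes with the myo-inositol transporter ITR1 of Neurospora crassa as their match, Hp33g86 was 141-fold, Hp33g87 24.8-fold and Hp33g85 3.63-fold higher. Hp18g124, matched to a quinate transporter of N. crassa, was 35.9-fold higher, and Hp28g48, matched to one of Emericella nidulans, 2.24-fold. Hp28g48 was not called by treat against a 2-fold change (adjusted p = 0.691, limma). As in the hexose transporter family, genes with the same closest match differed widely in their ratio.

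**Figure D4:**
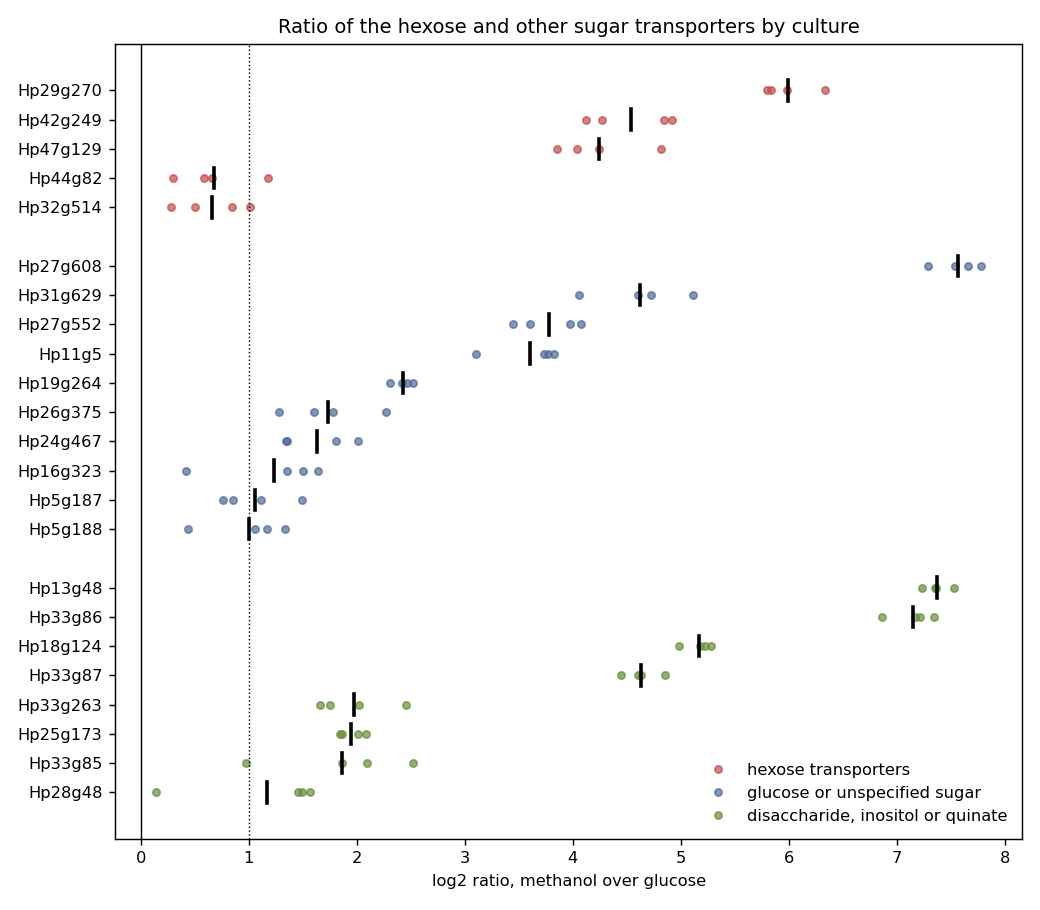
Log2 ratio of methanol over glucose of the 5 hexose transporters, the 10 other glucose or unspecified sugar transporters and the 8 disaccharide, inositol or quinate transporters, with 1 point per culture and the mean as a black tick. The solid line marks no change and the dotted line a 2-fold change. Hp32g514 and Hp44g82 are the members with a mean under the dotted line.

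Of 5 genes that act on glucose after uptake or in its sensing, 3 were called upregulated and 2 downregulated. The shares over all genes were 19.1% and 21.4%. The 5 were chosen with earlier results of these data known, so nothing is read from their counts. Hexokinase (Hp25g374) and glucokinase (Hp24g239), which phosphorylate imported glucose, had log2 ratios of -3.41 ± 1.86 and -1.80 ± 1.52 (SD, n = 4, adjusted p = 0.00447 and 0.0257, limma). Both were lower on methanol in 4 of 4 cultures, the most in culture 1 (-5.70 and -3.78) and the least in culture 4 (-1.19 and -0.19). Glucokinase was not called without culture 2 (-1.73), without culture 3 (-2.0), by the 4 arrays that carried methanol in Cy5 (-1.31, adjusted p = 0.0655) or by treat against a 2-fold change (adjusted p = 0.280, limma). Hexokinase had 2 saturated spot readings, so its ratio is less exact. The genes for an Snf1-like kinase (Hp29g24), a GRR1-like (Hp14g140) and an STD1-like protein (Hp19g162) were 2.51-fold, 2.51-fold and 3.91-fold higher. In S. cerevisiae Snf1 is needed for derepression of glucose-repressed genes, and Grr1 and Std1 act in the glucose control of hexose transporter genes. The spread of the 3 induced hexose transporters between cultures, at most 0.41 in log2 ratio, was smaller than that of both kinase genes. Of all genes, 99.8% and 99.6% had a lower spread than hexokinase and glucokinase. For Hp29g270, Hp42g249 and Hp47g129 these shares were 47.5%, 74.2% and 75.3%, so the spread of the transporters was not low.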

How the data were processed

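Glucose and methanol samples of 4 H. polymorpha cultures were measured on 8 Agilent 2-colour arrays. The authors deposited the Feature Extraction (version 9.5.3.1) output of each array, with the processed signal as an intensity per spot and dye after background treatment and dye normalization, and a table of log10 ratios. The values of that table stood 5 positions off the probe they belonged to; set right, they equalled the log10 ratios of Feature Extraction turned to methanol over glucose in 8 of 8 columns.

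The log2 ratio of the processed signals was averaged over the spots of a probe, leaving out outlier spots, then over the 2 arrays of a culture, which hold the same RNA and count as 1 replicate (n = 4). An intercept was fitted with limma 3.58.1 in R 4.3.3 over all gene probes, and tested on simulated data. Conditions were paired because both samples came from the same culture, and their deviations correlated with r between 0.247 and 0.453. Labelling differences were fitted likewise, and the comparison of each condition between dyes was added after these were seen. Levels are geometric means of processed signals; their number of arrays, not a read depth, limits the precision, and a level is not comparable between probes.

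The text names the members, the other sugar transporters, genes of glucose phosphorylation and signalling, the 4 check genes and, per member, the gene with the nearest ratios. Members and lists were chosen with earlier results of these data known. Alternatives are the normalization, the ratio tables, saturated spots, the spot average, single labellings, a dye term, the A-value limit, the tests, the array row, the pairing and each culture left out. No gene matched the reference gene table by ID (0 matches), so positions and sequences are not given here.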

Additional observations from a re-analysis of the deposited data

Results flagged for a closer look

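The log2 ratio differed between the arrays with methanol in Cy5 and those with glucose in Cy5 for 3 members, by 1.24 for Hp29g270, 1.26 for Hp42g249 and 1.37 for Hp47g129 (limma on the difference within each culture, n = 4).

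In Hp42g249 the log2 signal on glucose of culture 2, at 12.41, lay apart from 12.99, 12.95 and 13.01 in cultures 1, 3 and 4, with a gap of 0.906 of the range. Relative to the median of all genes in the channel it was 1.41, beside 1.41, 2.22 and 1.48 in cultures 1, 3 and 4. It was 1 of 20 groups of 4 values examined, and chance alone flags about 1 in 20.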

How the results depend on the processing

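The calls of Hp29g270, Hp42g249 and Hp47g129 held under all 23 alternatives. Their log2 ratios were 5.37 to 6.61, 3.91 to 5.17 and 3.55 to 4.93, and the extremes of each came from the arrays of a single labelling. Hp32g514 (0.53 to 0.79) was not called under any of the 23, nor was Hp44g82 (0.26 to 0.81) under the 22 that kept it; its lowest values, 0.26 and 0.30, came after normexp with loess and after loess without background subtraction, with adjusted p of 0.0651 and 0.0783 (limma). With each culture left out the ratios were 5.87 to 6.05, 4.41 to 4.68, 4.05 to 4.37, 0.54 to 0.79 and 0.51 to 0.81 in the order Hp29g270, Hp42g249, Hp47g129, Hp32g514 and Hp44g82. Without the replicate block, that is without the pairing by culture, the ratios were 5.99, 4.54, 4.24, 0.66 and 0.68 and no call of a member changed.

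The number of other sugar transporters called was 14 to 18 over the alternatives (16 to 17 with each culture left out, 14 by treat against a 2-fold change, 18 with no A-value limit). With each culture left out the labelling difference was 1.16 to 1.29, 1.20 to 1.34, 1.26 to 1.46, 0.07 to 0.20 and -0.24 to -0.04 for the members in the same order. That of Hp32g514 passed the test after normexp with loess (0.19, adjusted p = 0.0301), and that of Hp44g82 turned to 0.11 both after normexp with loess and after loess without background subtraction, and the cause was not tested. The difference in ratio of Hp32g514 and Hp44g82 turned to 0.28 and 0.26 under these, and ranged from -0.12 to 0.10 with each culture left out. The glucose signal of the 3 induced members stayed higher in Cy5 at an adjusted p under 0.05 with each culture left out; for Hp44g82 the difference between Cy5 and Cy3 was -0.52 to 0.031 on glucose and -0.023 to 0.31 on methanol, with the sign turned without culture 3.

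The 4 cultures limit the exact tests, and the low signal of Hp44g82 limits what its ratio shows.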
